A study of Mus musculus with 8 samples.

Results

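The genes examined here were 10 members of the IL6 cytokine family and the STAT3 axis. The choice was by name, with earlier results of these data known. All were found by symbol among the 53697 genes of the deposited count table. They comprise the ligands Il6, Lif, Il11, Osm and Clcf1, the receptor chains Il6st, Lifr and Osmr, the transcription factor Stat3 and its feedback inhibitor Socs3. All 10 passed the filter on low counts that left 18322 genes for testing.

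IL6 family cytokines signal through receptor complexes that share the chain encoded by Il6st. Ligand binding activates JAK kinases, which phosphorylate STAT3, and STAT3 induces Socs3, whose product shuts the receptor complex down. In the mammary gland this pathway is best known for LIF and STAT3 driving the regression of milk-producing epithelium after weaning, and it has been studied widely in breast tumors.

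RNA-seq was performed on tumor cells of 4 mice carrying the MMTV-PyMT transgene, a luminal-like mammary tumor model, on a C57BL/6 background. The PyMT-Dll1GFP group (2 mice) carried a GFP knock-in at the Notch ligand gene Dll1, and the PyMT-Dll1mCh group (2 mice) a BAC-based mCherry reporter of the same gene. Tumors were digested with collagenase and hyaluronidase, cells stained for CD45, CD31 or Ter119 were removed, and each mouse gave 1 library of reporter-positive (Dll1+) and 1 of reporter-negative (Dll1-) cells. The age of the mice is not given in the sources used here. The mice of a reporter group are named mouse 1 and mouse 2, and reporter line, individual mice and any separate handling of the lines cannot be told apart. Levels are in CPM, counts scaled to a common library size with TMM factors, and a gene is called where edgeR's quasi-likelihood test gives a Benjamini-Hochberg adjusted p under 0.05.

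Library totals ran from 27301396 to 123907626 counts, so that the detection floor of 3 counts lay between 0.0242 and 0.110 CPM. The sort was reflected in Dll1 itself, which was higher in the Dll1+ library of all 4 mice (log2 fold change 2.90 ± 0.24 SE, adjusted p = 0.00651). Its Dll1- levels were 7.61 and 13.7 CPM in PyMT-Dll1GFP and 34.7 and 50.3 CPM in PyMT-Dll1mCh mice. The matching Dll1+ levels were 87.5, 138, 203 and 250 CPM. The within-mouse log2 difference was 3.52 and 3.32 in PyMT-Dll1GFP and 2.55 and 2.31 in PyMT-Dll1mCh mice. Dll1- cells of the 2 reporters thus differed in Dll1 itself. Markers of other cells differed between the reporter groups. The summed fibroblast list (10 genes) lay at 1248 to 1461 CPM in the 4 PyMT-Dll1GFP libraries, at 8412 and 24117 CPM in the Dll1- and at 3695 and 3835 CPM in the Dll1+ libraries of PyMT-Dll1mCh mice. The pericyte list (6 genes) and the macrophage and myeloid list (15 genes) differed in the same direction, whereas the epithelial list (10 genes) stayed between 5780.0 and 9547 CPM in all 8 libraries. Cd14 weighed unevenly in the macrophage and myeloid sum. It gave 338 of 479 CPM in the Dll1+ library of PyMT-Dll1GFP mouse 1 and 147 of 807 CPM in the Dll1- library of PyMT-Dll1mCh mouse 1. Cd14 was higher in the Dll1+ library of all 4 mice, so this sum does not stand for macrophages alone. In bulk RNA, fewer cells of a type and less RNA per cell cannot be told apart.

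Compared per length, as CPM per kb of exon sequence, Socs3 had the highest median over the 8 libraries (95.7, range 62.4 to 209), followed by Stat3 (54.9, 40.5 to 74.8) and Lif (48.4, 22.7 to 126). These 3 ranges overlapped one another. Osmr (12.8, 6.56 to 22.9) was lower than all 3 apart from an overlap of its top with the lowest Lif library, and was followed by Il6st (7.71, 6.10 to 14.5) and Lifr (3.06, 2.05 to 3.41). Il6 (2.38) and Clcf1 (2.11, 0.831 to 4.64) came next, and Il6 had the widest range of the members relative to its level, from 0.614 to 28.5. The lowest levels per length were those of Osm (0.876, 0.397 to 3.66) and Il11 (0.360, 0.279 to 0.570). Apart from Lifr, whose highest library was below the lowest of Il6st, the ranges of neighbours in this order overlapped.

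**Figure D1:**
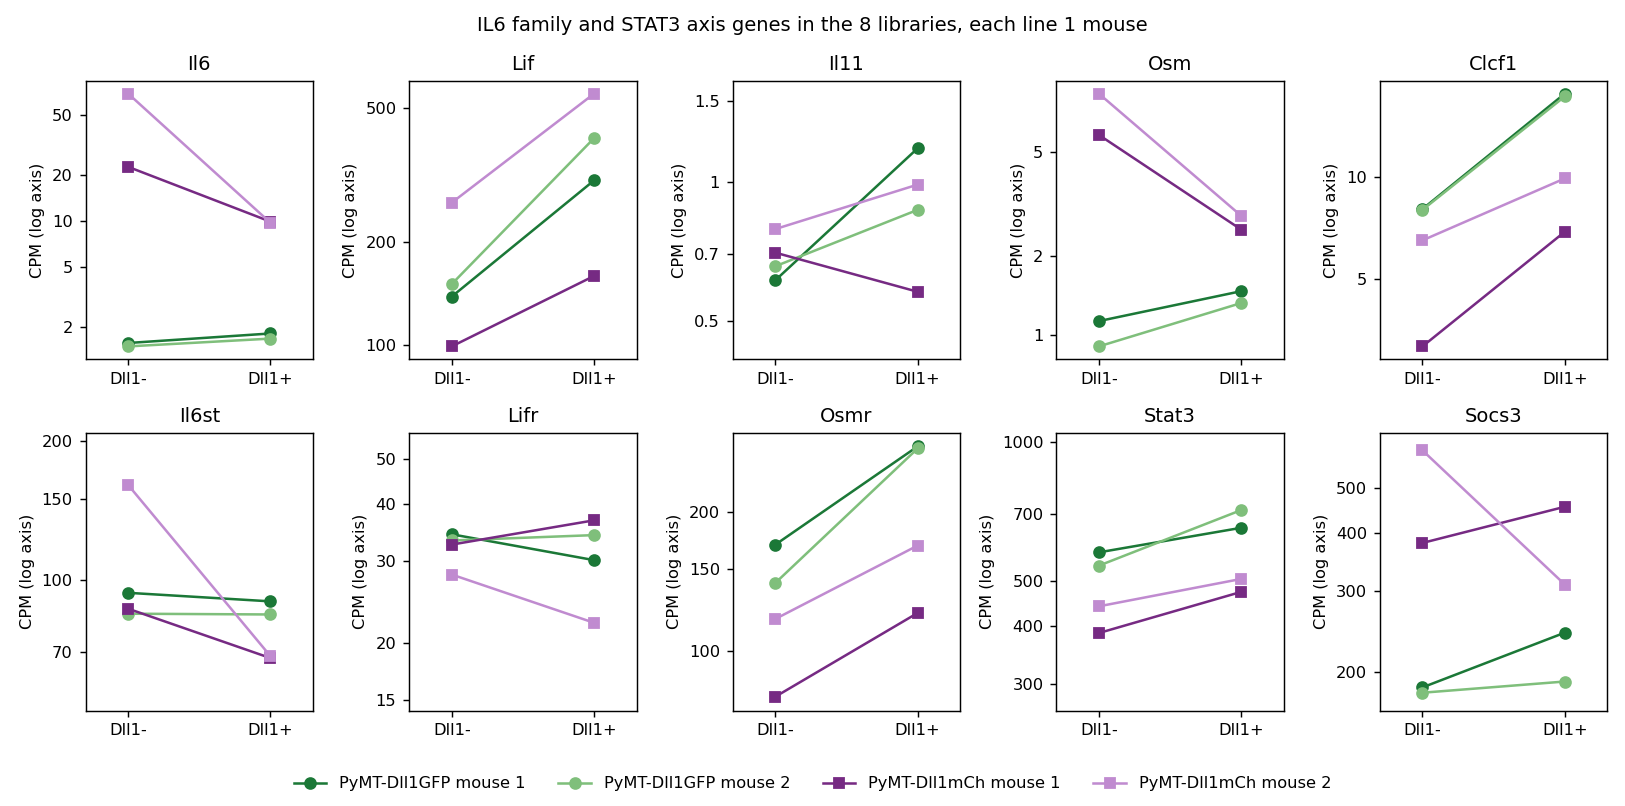
Level of each member in CPM (log axis) in the Dll1- and Dll1+ library of every mouse. Each line joins the 2 libraries of 1 mouse, with circles for PyMT-Dll1GFP and squares for PyMT-Dll1mCh mice. Lif, Clcf1, Osmr and Stat3 lie higher in the Dll1+ library in all 4 mice, and Il6 and Osm lie lower there in both PyMT-Dll1mCh mice and slightly higher in both PyMT-Dll1GFP mice.

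The first comparison asked which members differ between Dll1+ and Dll1- tumor cells of the same mouse. Over 4 mice, 3 of the 10 members were called, Lif, Clcf1 and Osmr, and all 3 were higher in Dll1+ cells. Among all tested genes 14.0% were called, 6.98% as higher and 7.04% as lower. Because the members were chosen with earlier results known, these shares give scale and do not test for an excess. The other 7 members were not called.

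Lif encodes leukemia inhibitory factor, which signals through Lifr and Il6st. In PyMT-Dll1GFP mice it rose from 139 to 305 CPM in mouse 1 and from 151 to 406 CPM in mouse 2. In PyMT-Dll1mCh mice the levels were 98.8 CPM in Dll1- and 159 CPM in Dll1+ cells of mouse 1, and 262 and 549 CPM in mouse 2. The Dll1+ library was the higher of the pair in every mouse, yet the groups overlapped, because the Dll1- library of PyMT-Dll1mCh mouse 2 exceeded the Dll1+ library of PyMT-Dll1mCh mouse 1. Over 4 mice Lif was 2.12-fold higher (1.08 ± 0.12 SE on the log2 scale, adjusted p = 0.00798).

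Clcf1 encodes cardiotrophin-like cytokine factor 1, a ligand of the CNTF receptor complex. Its level was 8.05 and 8.01 CPM in the Dll1- cells and 17.6 and 17.3 CPM in the Dll1+ cells of the PyMT-Dll1GFP mice. In PyMT-Dll1mCh mice it was 3.16 CPM in Dll1- and 6.90 CPM in Dll1+ cells of mouse 1, and 6.51 and 9.91 CPM in mouse 2. The difference was alike in 3 mice and smaller in PyMT-Dll1mCh mouse 2. Over 4 mice Clcf1 was 1.99-fold higher, with a 95% interval of 0.69 to 1.31 on the log2 scale (adjusted p = 0.0102). Clcf1 shares exon sequence on the same strand with the annotated gene AC109138.7, so its counts are uncertain to that extent.

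Osmr encodes the specific chain of the oncostatin M receptor. It measured 169.6 and 140.1 CPM in Dll1- and 277 and 274 CPM in Dll1+ cells of PyMT-Dll1GFP mice 1 and 2. In PyMT-Dll1mCh mice it measured 79.5 and 117 CPM in Dll1- and 121 and 169 CPM in Dll1+ cells. The rise was seen in each of the 4 mice, at a lower level in the PyMT-Dll1mCh mice. Over 4 mice Osmr was 1.63-fold higher (0.70 ± 0.08 SE on the log2 scale, adjusted p = 0.00914).

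The other 2 receptor chains did not follow Osmr. Il6st, the shared signal-transducing chain, was at 93.8 and 84.5 CPM in Dll1- against 89.9 and 84.2 CPM in Dll1+ cells of PyMT-Dll1GFP mice. In PyMT-Dll1mCh mice it was at 86.7 CPM against 67.8 CPM in mouse 1 and at 161 CPM against 68.4 CPM in mouse 2. The Dll1+ value was the lower of the pair in every mouse, by little in PyMT-Dll1GFP mice, the Dll1- library of PyMT-Dll1mCh mouse 2 stood above all others, and the log2 fold change over 4 mice was -0.41 ± 0.22 (SE, adjusted p = 0.267). Lifr ranged from 22.1 to 36.8 CPM with no common direction (log2 fold change -0.08, 95% interval -0.32 to 0.16, adjusted p = 0.621).

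Stat3 was higher in the Dll1+ library of all 4 mice without reaching the threshold in edgeR's test. Its Dll1- levels were 577 and 540.5 CPM in PyMT-Dll1GFP and 386 and 441 CPM in PyMT-Dll1mCh mice. The matching Dll1+ levels were 653, 713, 474 and 506 CPM. Over 4 mice this came to 0.27 ± 0.07 (SE) on the log2 scale, with an adjusted p of 0.0608. DESeq2's Wald test called Stat3 (adjusted p = 0.000544), as did edgeR with a minimum of 10 counts in every library (adjusted p = 0.0479). These were 2 of 9 alternatives. Stat3 was not called with RLE size factors, without the filter on low counts, without the mouse in the model, or when any 1 mouse was left out. The log2 value ranged from 0.23 to 0.30 over the alternatives. With Lif, Clcf1 and Osmr, Stat3 made up the 4 of 10 members that were higher in the Dll1+ library of 4 of 4 mice, against 21.4% of all tested genes. No member had all 4 Dll1+ libraries above all 4 Dll1- libraries, a pattern held by 2.74% of tested genes.

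Socs3, the feedback inhibitor, showed no common direction. It was at 185 and 181 CPM in Dll1- against 244 and 191 CPM in Dll1+ cells of PyMT-Dll1GFP mice, and at 381 CPM against 456 CPM in PyMT-Dll1mCh mouse 1. In PyMT-Dll1mCh mouse 2 it was at 604 CPM in Dll1- and 309.7 CPM in Dll1+ cells. Its log2 fold change was -0.05 (95% interval -0.67 to 0.56, adjusted p = 0.898).

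Il11, a cytokine with its own specific receptor, had low counts, with 18 to 88 counts per library and levels of 0.580 to 1.19 CPM. It was higher in the Dll1+ library of 3 of 4 mice (log2 fold change 0.32, 95% interval -0.34 to 0.98, adjusted p = 0.449).

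Leaving out PyMT-Dll1GFP mouse 1 removed the calls of Lif (adjusted p = 0.0510), Clcf1 (0.0566) and Osmr (0.0510). Leaving out PyMT-Dll1mCh mouse 1 removed those of Clcf1 (0.0608) and Osmr (0.0508) and kept that of Lif (0.0317).

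Other lists moved with the Dll1+ libraries, beside 6.98% of all tested genes called as higher and 7.04% as lower over 4 mice. The basal epithelial list (8 genes, 4 called as higher and 0 as lower) summed to 142 and 171 CPM in Dll1- and 226 and 399 CPM in Dll1+ cells of PyMT-Dll1GFP mice, and to 348 and 651 CPM against 1340.1 and 1495 CPM in PyMT-Dll1mCh mice. The list of dissociation and immediate-early genes (18 genes), which are known to rise during tissue digestion, held 11 genes called as higher in Dll1+ cells and 0 as lower. This count was 1 without PyMT-Dll1GFP mouse 1 or PyMT-Dll1mCh mouse 1, 3 without PyMT-Dll1GFP mouse 2 and 11 without PyMT-Dll1mCh mouse 2. Its sum was 27228 and 31325 CPM in Dll1- against 43157 and 42903 CPM in Dll1+ cells of PyMT-Dll1GFP mice, and 17902 and 24662 CPM against 27415 and 32823 CPM in PyMT-Dll1mCh mice. The part of either list in the levels of Lif, Clcf1 and Osmr was not tested.

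The promoter of Lif is shown because Lif had the largest estimate among the called members. The sequence is the RefSeq window of 250 bases before the start of Lif, chr11:4257318-4257567 on the plus strand of GRCm38.p6, with the match to the AP-1 motif in capitals:

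Lif: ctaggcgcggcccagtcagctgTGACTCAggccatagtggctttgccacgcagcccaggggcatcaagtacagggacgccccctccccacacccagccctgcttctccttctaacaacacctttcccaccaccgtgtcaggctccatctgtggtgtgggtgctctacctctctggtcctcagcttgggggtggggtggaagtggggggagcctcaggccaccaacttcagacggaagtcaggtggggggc

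RefSeq windows were found for 8 of the 10 members, 10 windows in all, and those of Osm and Clcf1 were not. Each was searched on both strands for TGANTCA, the core bound by AP-1 factors such as Fos and Jun, and for TTCNNNGAA, the palindrome bound by STAT factors. The AP-1 core was found before 3 members, Lif (TGACTCA, 228 to 222 bases upstream), Il6 and Il11, and in 6.75% of the 32851 promoter windows of all genes. Neither motif was found in the Osmr window, which lies wholly within exon sequence of Osmr in the GENCODE annotation. Of the Lif window, 11 bases lie in exon sequence of Lif there. A match is a stretch of letters and not a measured binding site.

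The second comparison took the same contrast within each reporter, with 2 mice each and the spread pooled over all 8 libraries. Lif, Clcf1 and Osmr were called as higher in Dll1+ cells in both reporters. In PyMT-Dll1GFP mice 3 of 10 members were called as higher and 0 as lower, against 4.29% and 4.84% of all tested genes. In PyMT-Dll1mCh mice 3 were called as higher and 1, Osm, as lower, against 5.51% and 6.25%. DESeq2's Wald test called 6 members in PyMT-Dll1mCh mice, with Il6 and Il6st also lower, among 2473 of 18322 genes called.

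The log2 fold change of Lif was 1.28 ± 0.13 (SE, adjusted p = 0.00449) in PyMT-Dll1GFP and 0.88 ± 0.13 (adjusted p = 0.0146) in PyMT-Dll1mCh mice. That of Osmr was 0.84 ± 0.09 (adjusted p = 0.00608) and 0.57 ± 0.09 (adjusted p = 0.0189). That of Clcf1 was 1.12 ± 0.17 (adjusted p = 0.0147) and 0.87 ± 0.17 (adjusted p = 0.0286). For each of the 3 genes the estimate was larger in the PyMT-Dll1GFP mice, and the difference between the reporters was not called (adjusted p = 0.406 for Lif, 0.444 for Osmr and 0.723 for Clcf1). The within-mouse difference in Dll1 itself was also larger in PyMT-Dll1GFP mice, and its part in these estimates was not tested.

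For Il6 and Osm the estimates had opposite signs in the 2 reporters. Il6 encodes interleukin 6, which macrophages, fibroblasts and some epithelial cells secrete. It was at 1.57 and 1.49 CPM in Dll1- and at 1.81 and 1.68 CPM in Dll1+ cells of PyMT-Dll1GFP mice. In PyMT-Dll1mCh mice it was at 22.8 CPM in Dll1- and 9.90 CPM in Dll1+ cells of mouse 1, and at 69.2 and 9.73 CPM in mouse 2. All 4 PyMT-Dll1mCh libraries were above all 4 PyMT-Dll1GFP libraries, and the 2 Dll1- libraries of PyMT-Dll1mCh mice were the highest. The Dll1+ over Dll1- log2 fold change was 0.19 (95% interval -1.45 to 1.83) in PyMT-Dll1GFP and -2.01 ± 0.44 (SE, adjusted p = 0.0704) in PyMT-Dll1mCh mice.

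Osm encodes oncostatin M, a cytokine known mainly from myeloid cells and the ligand of the receptor chain encoded by Osmr. It was at 1.13 and 0.901 CPM in Dll1- and at 1.46 and 1.32 CPM in Dll1+ cells of PyMT-Dll1GFP mice. In PyMT-Dll1mCh mice it fell from 5.79 to 2.52 CPM in mouse 1 and from 8.32 to 2.84 CPM in mouse 2 (log2 fold change -1.37 ± 0.22 SE, adjusted p = 0.0175). Ligand and receptor chain thus differed in direction in the PyMT-Dll1mCh mice, Osm lower and Osmr higher in Dll1+ cells.

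The difference of the Dll1 effect between the reporters was called for 0 of 10 members and for 0.0710% of all tested genes by edgeR, with 2 members, Osm and Il6, under 0.05 before adjustment. The log2 difference, PyMT-Dll1GFP minus PyMT-Dll1mCh, was 1.84 ± 0.33 (SE, adjusted p = 0.112) for Osm and 2.20 ± 0.73 (adjusted p = 0.354) for Il6. DESeq2's Wald test called both (adjusted p = 0.0345 and 0.00362). Within the PyMT-Dll1mCh mice, 11 of 15 macrophage and myeloid genes, 5 of 10 fibroblast genes and 6 of 6 pericyte genes were also called as lower in Dll1+ cells. In PyMT-Dll1GFP mice 0 genes of these 3 lists were called as lower. In each reporter 1 macrophage and myeloid gene was called as higher in Dll1+ cells. The part of these cells in the levels of Il6 and Osm was not tested.

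Fitted on the 4 PyMT-Dll1mCh libraries alone, no member was called (adjusted p = 0.0621 for Lif, 0.0621 for Osmr, 0.0643 for Osm and 0.106 for Clcf1). The PyMT-Dll1GFP calls of all 3 genes were lost when either of its mice was left out (adjusted p of Lif 0.0697 without mouse 1 and 0.101 without mouse 2). In PyMT-Dll1mCh mice, Clcf1 was also not called without PyMT-Dll1GFP mouse 1 (0.0639) or mouse 2 (0.0660). Without PyMT-Dll1mCh mouse 2 the calls of Lif (0.0505), Osm (0.0890) and Osmr (0.0613) were lost, and without mouse 1 those of Clcf1 (0.125) and Osmr (0.0751).

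**Figure D2:**
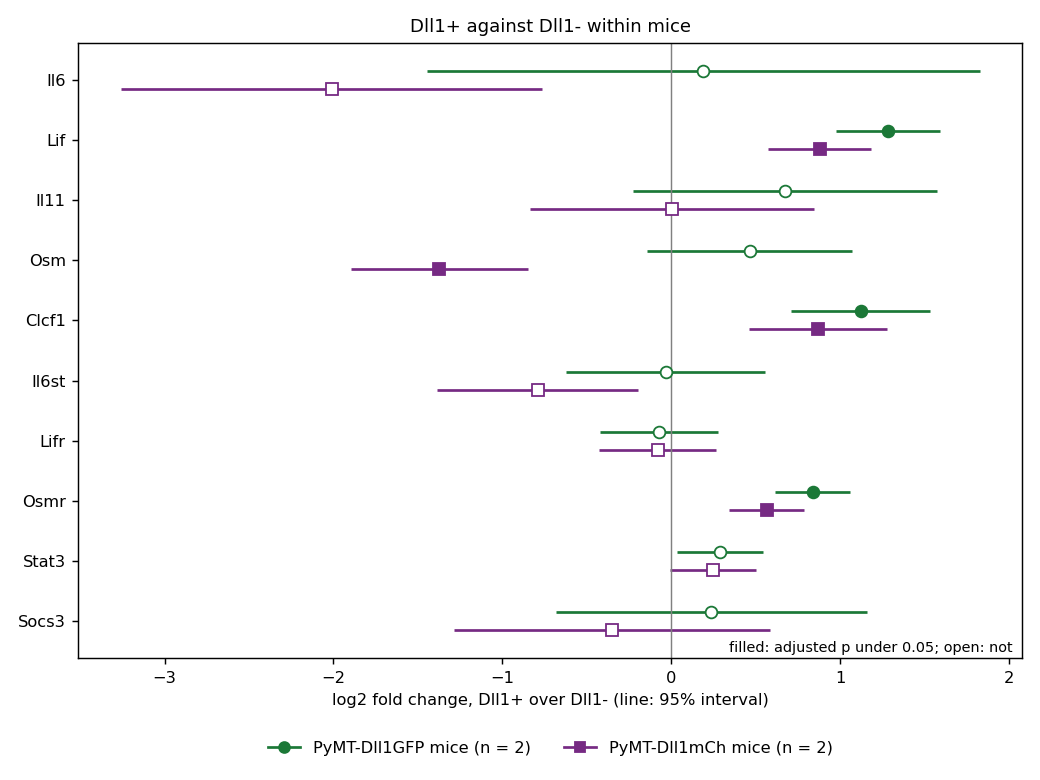
Log2 fold change of Dll1+ over Dll1- cells for each member in PyMT-Dll1GFP (circles) and PyMT-Dll1mCh mice (squares), with 95% intervals as lines and filled symbols where the adjusted p is under 0.05. Lif, Clcf1 and Osmr lie right of 0 in both reporters, and Osm and Il6 lie left of 0 in PyMT-Dll1mCh mice only.

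The third comparison set PyMT-Dll1mCh against PyMT-Dll1GFP mice within each sorted population, 2 against 2 mice, in a fit without a term for the mouse. In Dll1- cells 3 members were called as higher in PyMT-Dll1mCh mice (Il6, Osm and Socs3) and 1 as lower (Stat3), against 18.7% and 17.9% of all tested genes. In Dll1+ cells 2 were called as higher (Il6 and Osm) and 2 as lower (Osmr and Stat3), against 15.2% and 15.4%. These counts are to be read against the large shares among all genes. Mean Dll1 was 3.99 times as high in Dll1- and 2.01 times as high in Dll1+ cells of PyMT-Dll1mCh mice. The populations compared were therefore not alike in Dll1, and the part of this in the members' levels was not tested.

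Il6 had the largest difference of the members. Its mean level in Dll1- cells was 30.0 times as high in PyMT-Dll1mCh as in PyMT-Dll1GFP mice (log2 fold change 4.90 ± 0.55 SE, adjusted p = 0.00207), and in Dll1+ cells 5.62 times as high (2.49 ± 0.50, adjusted p = 0.0140). These ratios rest on 43 to 75 counts per PyMT-Dll1GFP library and 541 to 2842 per PyMT-Dll1mCh library. In Dll1- cells the log2 value was 5.49 without PyMT-Dll1mCh mouse 1 and 3.94 without mouse 2. The Il6 promoter window is shown for this reason, chr5:30012864-30013113 on the plus strand of GRCm38.p6 from RefSeq, with the AP-1 core 249 to 243 bases upstream in capitals:

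Il6: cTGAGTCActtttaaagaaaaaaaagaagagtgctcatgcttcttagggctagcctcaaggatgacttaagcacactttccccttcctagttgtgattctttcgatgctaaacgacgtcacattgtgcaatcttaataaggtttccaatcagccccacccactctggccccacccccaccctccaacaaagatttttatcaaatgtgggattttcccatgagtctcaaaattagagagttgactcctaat

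Osm was higher in PyMT-Dll1mCh mice by 2.79 ± 0.29 (SE) on the log2 scale in Dll1- cells (adjusted p = 0.00169) and by 0.95 ± 0.28 in Dll1+ cells (adjusted p = 0.0407). Socs3 was higher by 1.43 ± 0.28 in Dll1- cells (adjusted p = 0.00924), and in Dll1+ cells the difference was 0.82 ± 0.27 (adjusted p = 0.0607). For Il6, Osm and Socs3 all 4 PyMT-Dll1mCh libraries were above all 4 PyMT-Dll1GFP libraries, which held for 3 of 10 members and for 21.5% of tested genes. The RefSeq window of Socs3, chr11:117969367-117969616 on the minus strand of GRCm38.p6, is shown as the promoter of a known STAT3 target, with its STAT palindrome in capitals:

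Socs3: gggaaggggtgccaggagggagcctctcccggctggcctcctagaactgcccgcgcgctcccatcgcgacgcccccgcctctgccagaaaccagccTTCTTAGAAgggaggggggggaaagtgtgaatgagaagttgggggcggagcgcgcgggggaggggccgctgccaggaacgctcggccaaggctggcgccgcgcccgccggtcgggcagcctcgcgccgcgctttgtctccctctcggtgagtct

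Among the members this palindrome was found only before Socs3 (154 to 146 bases upstream of the RefSeq start) and it was present in 7.02% of the promoter windows of all genes. In GENCODE 77 of the 250 bases of this Socs3 window lie in exon sequence of Socs3.

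Stat3 and Osmr had the reverse order. Stat3 was lower in PyMT-Dll1mCh mice by 0.43 on the log2 scale in Dll1- cells (SE 0.12, adjusted p = 0.0282) and by 0.48 in Dll1+ cells (SE 0.12, adjusted p = 0.0249). It was the only member with all 4 PyMT-Dll1mCh below all 4 PyMT-Dll1GFP libraries, a pattern of 21.8% of tested genes. The log2 difference of Osmr was -0.93 ± 0.23 (SE, adjusted p = 0.0260) in Dll1+ and -0.66 ± 0.23 (adjusted p = 0.0635) in Dll1- cells. Clcf1 differed by -0.75 ± 0.35 in Dll1- (adjusted p = 0.131) and -1.06 ± 0.34 in Dll1+ cells (adjusted p = 0.0543). Lif was not called in Dll1- cells (0.32, 95% interval -1.18 to 1.81) or Dll1+ cells (95% interval -1.49 to 1.48), and the 2 PyMT-Dll1mCh mice lay on either side of the PyMT-Dll1GFP mice.

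In Dll1- cells, 10 of 10 fibroblast, 6 of 6 pericyte, 8 of 8 endothelial and 13 of 15 macrophage and myeloid genes were called as higher in PyMT-Dll1mCh mice. In Dll1+ cells the numbers were 6 of 10, 4 of 6, 3 of 8 and 10 of 15. The lymphocyte list (6 genes) summed to at most 4.42 CPM in any library, and Cd3d and Nkg7 were each at 0 in at least 1 library. The part of these cells in the levels of Il6, Osm and Socs3 was not tested. Of 8 basal epithelial genes, 3 were called as higher and 1 as lower in Dll1- cells, and 5 and 0 in Dll1+ cells. Of 18 dissociation and immediate-early genes, 0 were called as higher and 5 as lower in Dll1- cells, and 0 and 2 in Dll1+ cells. Among all tested genes 18.7% and 17.9% were called in Dll1- and 15.2% and 15.4% in Dll1+ cells. The part of these lists in the members' levels was not tested. Without either of the 2 PyMT-Dll1GFP mice no member was called in this comparison, with adjusted p of Il6 in Dll1- cells at 0.0788 without mouse 1 and 0.0726 without mouse 2. The Dll1- call of Stat3 was also lost without PyMT-Dll1mCh mouse 1 (0.0658) and the Dll1+ call of Osm without PyMT-Dll1mCh mouse 2 (0.0616). On the 4 Dll1- libraries alone the call of Stat3 was lost (adjusted p = 0.0615), and on the 4 Dll1+ libraries alone that of Osm (0.0664). Without the filter on low counts, Il6 (0.0513) and Osm (0.0518) were not called in Dll1+ cells, while Socs3 (0.0406) and Clcf1 (0.00147) were, and in Dll1- cells Stat3 (0.0506) was not called while Osmr (0.00391) and Clcf1 (0.0359) were.

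**Figure D3:**
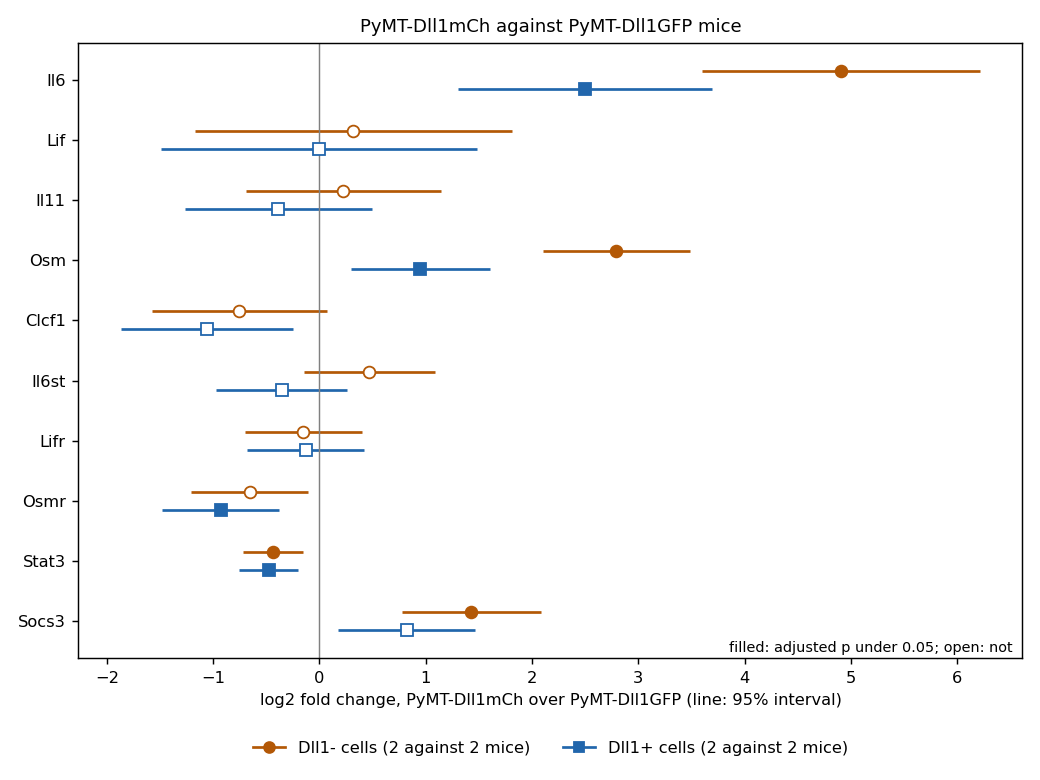
Log2 fold change of PyMT-Dll1mCh over PyMT-Dll1GFP mice for each member in Dll1- (circles) and Dll1+ cells (squares), with 95% intervals as lines and filled symbols where the adjusted p is under 0.05. Il6 and Osm lie right of 0 in both populations, Stat3 lies left of 0 in both.

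**Figure D4:**
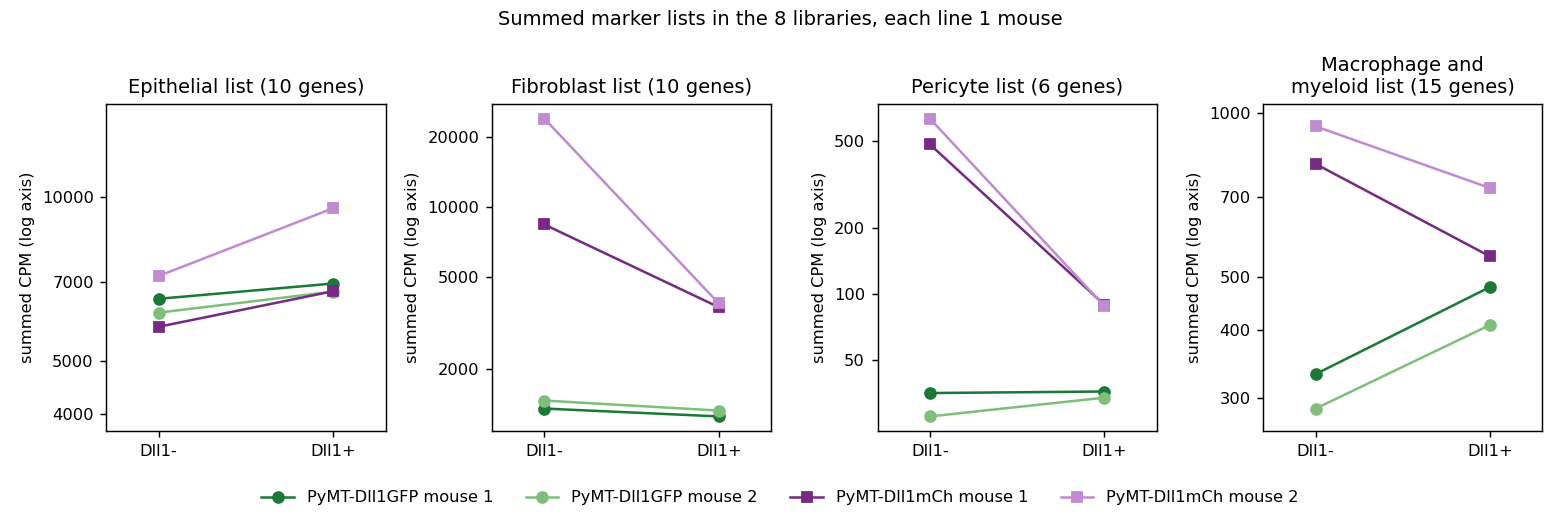
Summed CPM (log axis) of 4 marker lists in the Dll1- and Dll1+ library of every mouse, drawn as for the members. The fibroblast and pericyte sums are highest in the 2 Dll1- libraries of PyMT-Dll1mCh mice, where Il6 and Osm were also highest, while the epithelial sum stays between 5780.0 and 9547 CPM.

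The other genes of the pathway were taken as 5 lists with 62 genes, of which 58 passed the filter. These lists were also chosen with earlier results known, so the shares beside them do not test for an excess. Over 4 mice 11 of the 58 were called as higher and 5 as lower in Dll1+ cells, against 6.98% and 7.04% of all tested genes, and the count of lower genes is near that share. Each call between reporters given below for these genes was lost without either PyMT-Dll1GFP mouse, which leaves 1 mouse in that group. Those of Stat6 in Dll1- cells and Saa2 in Dll1+ cells were kept in 4 of 10 alternatives.

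Of the 7 other ligands and carriers, Ctf2, Il27 and Il31 were below the filter. Ctf1, which encodes cardiotrophin 1, another ligand of Lifr and Il6st, rose in Dll1+ cells by 0.61 on the log2 scale (SE 0.10, adjusted p = 0.0176). Its Dll1- and Dll1+ levels were 7.30 and 12.7 CPM and 5.996 and 9.19 CPM in PyMT-Dll1GFP mice, and 7.52 and 10.9 CPM and 9.12 and 12.9 CPM in PyMT-Dll1mCh mice. The call of Ctf1 was lost without PyMT-Dll1GFP mouse 1, PyMT-Dll1GFP mouse 2 or PyMT-Dll1mCh mouse 1. Cntf and Ebi3 were not called (log2 fold changes -0.42 and -0.18). Ebi3, a subunit of other cytokines of the family, was higher in Dll1- cells of PyMT-Dll1mCh than of PyMT-Dll1GFP mice (2.10 ± 0.41 SE, adjusted p = 0.00929).

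Of the 5 other receptors, Il31ra was below the filter. Il6ra, the specific receptor chain for interleukin 6, fell in Dll1+ cells. In PyMT-Dll1GFP mice it was at 21.8 and 22.5 CPM in Dll1- and at 8.51 and 10.3 CPM in Dll1+ cells, and in PyMT-Dll1mCh mice at 24.0 and 17.8 CPM against 18.3 and 11.8 CPM. The Dll1+ library was the lower of the pair in every mouse, and over 4 mice the change was -0.86 on the log2 scale (SE 0.18, adjusted p = 0.0340). It was called as lower in both reporters, at -1.24 ± 0.12 (adjusted p = 0.00449) in PyMT-Dll1GFP and -0.49 ± 0.12 (adjusted p = 0.0476) in PyMT-Dll1mCh mice. The call over 4 mice was lost without PyMT-Dll1GFP mouse 1, PyMT-Dll1GFP mouse 2 or PyMT-Dll1mCh mouse 1, and the log2 value ranged from -1.02 to -0.70 over 9 alternatives. The PyMT-Dll1GFP call was lost without either of its mice, and the PyMT-Dll1mCh call in 6 of 10 alternatives, among them leaving out any 1 mouse and the reporter fitted alone. Il11ra1, Cntfr and Il27ra were not called over 4 mice (log2 fold changes -0.24, 0.12 and -1.64). Il27ra was lower in Dll1+ cells of PyMT-Dll1mCh mice (-2.38 ± 0.38, adjusted p = 0.0184), at 2.39 CPM against 0.702 CPM in mouse 1 and 4.46 CPM against 0.540 CPM in mouse 2, a call lost without mouse 2 and with the reporter fitted alone. Between reporters, Il11ra1 (1.18 ± 0.23, adjusted p = 0.0100) and Il27ra (3.09 ± 0.44, adjusted p = 0.00333) were higher in Dll1- cells of PyMT-Dll1mCh mice, and Cntfr (2.09 ± 0.61, adjusted p = 0.0420) in Dll1+ cells. The Cntfr call rests on 42 and 25 counts in the Dll1+ libraries of PyMT-Dll1GFP mice and was lost when any 1 of the 4 mice was left out.

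Of the 10 kinases and other STATs, Stat5a was called over 4 mice, as lower in Dll1+ cells by edgeR (-0.37 on the log2 scale, SE 0.08, adjusted p = 0.0321). The call was lost when any 1 of the 4 mice was left out. STAT5A is the factor that prolactin signaling activates in milk-producing epithelium. The median of the list was -0.05, beside -0.00 for all tested genes. In PyMT-Dll1mCh mice, 5 of the 10 were called as lower in Dll1- cells (Jak2, Tyk2, Stat5a, Stat5b and Stat6) and 3 in Dll1+ cells (Tyk2, Stat2 and Stat5b), at -0.28 to -0.73 on the log2 scale, against 17.9% and 15.4% of all tested genes called as lower.

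Of the 17 inhibitors and adaptors, 3 were called over 4 mice, all as higher in Dll1+ cells. Ptpn2, a phosphatase that inactivates STAT factors and JAK kinases, rose by 0.62 ± 0.09 (SE, adjusted p = 0.0126), from 74.6 to 137 CPM and from 72.0 to 118 CPM in PyMT-Dll1GFP mice and from 64.0 to 87.4 CPM and from 74.9 to 102 CPM in PyMT-Dll1mCh mice. The log2 fold changes of Socs5 (0.33 ± 0.08, adjusted p = 0.0465) and Socs2 (0.33 ± 0.08, adjusted p = 0.0491) were smaller, and both encode proteins of the same family as Socs3. The adaptor Gab1 was called as higher in PyMT-Dll1mCh mice (0.41, adjusted p = 0.0430). Socs1, another inhibitor of JAK kinases, was higher in Dll1- cells of PyMT-Dll1mCh than of PyMT-Dll1GFP mice (2.77 ± 0.48, adjusted p = 0.00614), as Socs3 was. Without PyMT-Dll1GFP mouse 1, PyMT-Dll1GFP mouse 2 or PyMT-Dll1mCh mouse 1, 0 of the 17 were called over 4 mice, 2 were called without PyMT-Dll1mCh mouse 2, and Socs2 was also not called with RLE size factors. The PyMT-Dll1mCh call of Gab1 was lost when any 1 of the 4 mice was left out. Between the reporters Socs4 and Pias1 were lower in both populations of PyMT-Dll1mCh mice, and Ptpn2 was lower in Dll1+ cells.

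Of the 23 genes listed as STAT3 targets, 7 were called as higher and 3 as lower in Dll1+ cells over 4 mice, with a median log2 fold change of 0.25, beside 6.98% and 7.04% of all tested genes and a median of -0.00. The list holds genes that other factors regulate too. Igfbp5, an IGF-binding protein known from mammary regression, had the largest rise (1.17 ± 0.11 SE, adjusted p = 0.00633), from 11483 to 22826 CPM and from 10092 to 23912 CPM in PyMT-Dll1GFP mice and from 4626 to 12031 CPM and from 6174 to 12892 CPM in PyMT-Dll1mCh mice. Pim3 (0.48), Bcl2l1 (0.38), Lcn2 (0.49), Bcl6 (0.50), Vegfa (0.50) and Cebpb (0.60) were also called as higher. Bcl2l1 encodes a survival protein, Lcn2 an iron-binding secreted protein, Vegfa an angiogenic factor, and Bcl6 and Cebpb transcription factors.

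Birc5, a survival and cell division gene, fell by 1.06 on the log2 scale (SE 0.10, adjusted p = 0.00633), from 22.9 to 9.35 CPM and from 22.5 to 11.3 CPM in PyMT-Dll1GFP mice and from 52.9 to 22.8 CPM and from 46.2 to 27.1 CPM in PyMT-Dll1mCh mice. Bcl3 (-0.40) and the acute-phase gene Saa3 (-0.84) were the other genes called as lower. The acute-phase genes Saa1 and Saa2 were lower in Dll1+ cells of PyMT-Dll1GFP mice (-1.38 ± 0.14, adjusted p = 0.00650, and -1.81 ± 0.21, adjusted p = 0.0142) and not called in PyMT-Dll1mCh mice. They are near-identical copies, so reads may have been divided between them. The call of Saa1 was lost without either PyMT-Dll1GFP mouse and that of Saa2 without mouse 2. Genes of this list therefore moved in both directions in the cells with higher Lif and Osmr.

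Within the reporters the STAT3 target list held 1 gene called as higher and 3 as lower in PyMT-Dll1GFP mice (medians 0.15 for the list and -0.01 for all genes, with 4.29% and 4.84% of all genes called), and 4 and 4 in PyMT-Dll1mCh mice (0.40 and 0.02, with 5.51% and 6.25% called), where Myc (-0.40) and Timp1 (-1.07) were among the lower. Between reporters, 5 were called as higher and 3 as lower in Dll1- cells of PyMT-Dll1mCh mice, and 4 and 3 in Dll1+ cells. With 18.7% and 17.9% of all tested genes called in Dll1- cells and 15.2% and 15.4% in Dll1+ cells, these counts show nothing particular to the list. Timp1, also a fibroblast gene, was among the higher in both populations (2.82 ± 0.34 in Dll1- and 1.68 ± 0.33 in Dll1+ cells, adjusted p = 0.00250 and 0.0132). Birc5 was also higher in both, Bcl3, Lcn2 and Il4ra in Dll1- cells and Saa1 and Saa2 in Dll1+ cells. Bcl6, Igfbp5 and Pik3r1 were lower in both. Of the genes named here, Igfbp5 and Birc5 remained called over 4 mice whichever mouse was left out. Leaving out 1 mouse left between 2 and 6 genes of this list called over 4 mice instead of 10, with 2 left without PyMT-Dll1GFP mouse 1 or without PyMT-Dll1mCh mouse 1, 4 without PyMT-Dll1GFP mouse 2 and 6 without PyMT-Dll1mCh mouse 2.

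**Figure D5:**
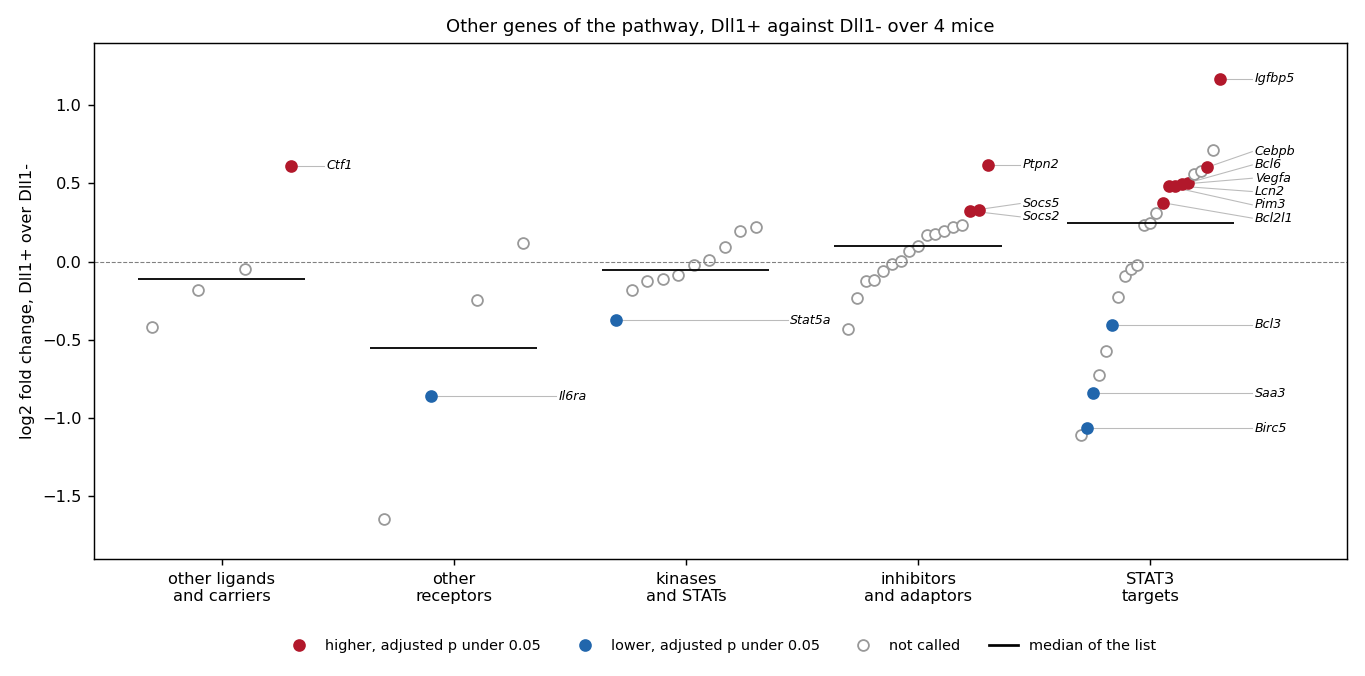
Log2 fold change of Dll1+ over Dll1- cells over 4 mice for the tested genes of 5 pathway lists. Filled red points were called as higher, filled blue points as lower, open points were not called, and the black line is the median of a list. Ctf1, Ptpn2 and Igfbp5 are the highest called genes of their lists, and Il6ra and Birc5 the lowest called ones.

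The genes whose profile over the 8 libraries was most like that of a member were sought among the 14895 tested genes whose mean reached 1 CPM, by the root mean square distance of centred log2 CPM. For Lif they were Lipt2 (0.196), Csdc2 (0.229) and Hrct1 (0.231). For Stat3 they were Inpp5j (0.0427), Fam210a (0.0447) and Ddx42 (0.0466), and for Socs3 Gadd45g (0.129), Lynx1 (0.149) and Gas1 (0.150). The list for Stat3 has the smallest distances. Over the 8 libraries Stat3 ran from 386 to 713 CPM, Lif from 98.8 to 549 CPM and Socs3 from 181 to 604 CPM.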

How the data were processed

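RNA was measured in 8 TruSeq Stranded libraries of sorted tumor cells from 4 mice. The authors mapped reads with salmon (version not given in the sources used here) to GENCODE M20 transcripts of GRCm38.p6, summed them per gene with tximport. Integer estimated counts, not normalized, were deposited. The strand setting is not given in the sources used here, so for Stat3, which overlaps an exon of Stat5a on the other strand, reads of both genes may not be separated.

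Symbols and coordinates came from GENCODE M21 and promoter windows from RefSeq. Genes were filtered with filterByExpr on Dll1 status and tested with edgeR 4.0.16 in R 4.3.3 (TMM, robust quasi-likelihood F test, Benjamini-Hochberg adjustment over 18322 genes, threshold 0.05). The model held Dll1 status and mouse, following the study's 2-factor model. A second fit held the mouse and a Dll1 effect per reporter, and another, with 4 groups, gave the contrasts between reporters. The 4-group fit held no term for the mouse, because each mouse belongs to 1 reporter. The 2 libraries of a mouse thus entered its spread as if independent, though each contrast rests on 2 against 2 mice. The pairs come from the mouse number in the labels. As a check, deviations from group means correlated across genes at r = -0.05 within PyMT-Dll1GFP and 0.55 within PyMT-Dll1mCh mice. In PyMT-Dll1GFP mice the check thus showed no shared deviation of the paired libraries, and the pairing there rests on the labels alone. SE and 95% intervals derive from the fitted F statistic. Log2 levels per library used a prior count of 2, and floors cover counting error only. Scripts were tested on simulated counts.

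All members are named, with every pathway gene past the threshold, up to 5 with the lowest p per list and comparison, and the 3 genes most like Lif, Stat3 and Socs3. Values of some listed genes are not reported here. The members and lists were chosen with earlier results of these data known. Alternatives were RLE factors, DESeq2 1.42.0, other filters, fits without the block or of part of the libraries, and leaving out each mouse.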

Additional observations from a re-analysis of the deposited data

Results flagged for a closer look

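A single library stood far from the other 3 in 2 of 30 sets of values, each set holding 1 member in 4 libraries or 4 mice. Chance alone flags about 1 in 20 such sets.

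The within-mouse log2 difference of Clcf1 between Dll1+ and Dll1- cells was 0.60 in PyMT-Dll1mCh mouse 2, below the values of 1.13, 1.11 and 1.12 in the other mice. The Il6st level in Dll1- cells of PyMT-Dll1mCh mouse 2 was 7.33 on the log2 CPM scale, or 161 CPM, above 93.8, 84.5 and 86.7 CPM in the other mice. The same library had the highest fibroblast sum of the 8, 24117 CPM, and the part of these cells in the Il6st level was not tested.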

How the results depend on the processing

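Over 4 mice, a fit with Dll1 status alone left 0 genes and 0 members called (adjusted p = 0.478 for Lif). That fit dropped the reporter along with the mouse, so it does not show the effect of the pairing alone. Fits that kept the 4 groups without the mouse left 274 genes in PyMT-Dll1GFP and 212 in PyMT-Dll1mCh mice, with 0 members each. They left 0 genes for the difference between reporters. Between reporters, a replicate block by the number in the labels, which pairs different mice, gave 6875 genes and 4 members in Dll1- and 5868 genes and 5 members in Dll1+ cells. DESeq2 called 4362 genes over 4 mice, and 541 genes and 2 members for the difference between reporters. Without the filter, 3001 genes were called in PyMT-Dll1GFP and 3637 in PyMT-Dll1mCh mice, and 1143 genes and 2 members for the difference, where at least 10 counts in every library gave 44 genes. Fitted alone, PyMT-Dll1mCh mice gave 0 genes and 0 members.

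Leaving out 1 mouse at a time gave 405 to 2400 genes and 0 to 3 members over 4 mice, 2 to 2355 genes and 0 to 3 members in PyMT-Dll1GFP mice, 905 to 1315 genes and 2 to 5 members in PyMT-Dll1mCh mice, 0 to 717 genes and 0 to 3 members for the difference, 0 to 7828 genes and 0 to 6 members between reporters in Dll1- cells, and 0 to 6897 genes and 0 to 8 members in Dll1+ cells. Without PyMT-Dll1mCh mouse 1, Lif in Dll1+ cells was higher in the remaining PyMT-Dll1mCh mouse (log2 0.59, adjusted p = 0.0399), and without mouse 2 it was lower (-1.15, adjusted p = 0.00590). Where a reporter keeps 1 mouse, that mouse is assumed to vary like the others. Over all alternatives, 487 of the members' values stayed on their side of the threshold, 55 lost and 37 gained a call, 1 reversed, and 20 values of members or other pathway genes changed sign while called under neither setting. Another prior count or transcript length left the members' directions and order as they were. The causes of these changes were not tested, except that fewer mice enter each leave-one-out fit.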
